A study of Mus musculus with 8 samples.

Results

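The genes of cholesterol and fatty acid synthesis were examined as one group of 31 genes across 4 mouse models of endometrial cancer. The members were matched by gene symbol among the 24419 genes of the count table, all 31 were found, and all 31 had enough counts to be tested among 15875 genes. They fall into 5 roles: 4 regulators and transport genes, 7 genes of the mevalonate and isoprenoid steps, 11 genes of the squalene and sterol steps, 4 genes of fatty acid synthesis and 5 genes of fatty acid desaturation and elongation.

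The material was RNA from tumors that grew after edited uterus organoids of CAG-Cas9-EGFP mice, which carry the nuclease in all cells, had been placed in the left uterus of female nude mice. Each model had 2 libraries, from separate mice. TPM organoids carried an sgRNA against Trp53 and overexpressed Myc, among other edits. TPMPik3ca organoids also received Pik3ca E545K cDNA, TPMPik3r1 organoids also received an sgRNA against Pik3r1, and TPK organoids carried the Trp53 sgRNA with no added Myc. The edits were carried in by virus, the host mice kept their own stroma, vessels and macrophages, and the sample labels call the material organoids where the study's methods describe tumor tissue. In such bulk RNA, fewer cells of a type and less RNA per cell cannot be told apart.

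Cells keep their cholesterol within limits through the SREBP transcription factors, encoded by Srebf1 and Srebf2. When sterol is scarce these factors leave the endoplasmic reticulum, are cut in the Golgi and switch on the enzymes of sterol and fatty acid synthesis, whereas INSIG proteins hold them back when sterol is plentiful. Steroid-making cells spend cholesterol as the raw material of their hormones, and PI3K signaling is known to raise SREBP activity in many cell types.

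The libraries held 15748396 to 26943611 counts, the most in TPMPik3r1 replicate 1. Levels are in CPM, which put the libraries on one scale of depth, and the floor of 3 counts equals 0.116 to 0.198 CPM, counting error only. The targeted gene Pik3r1 was at 101 and 51.3 CPM in TPMPik3r1 and at 78.1 to 188 CPM in the other 6 libraries. The groups thus overlapped, and a transcript count does not show whether a gene was cut. The study itself reported Pik3r1 disruption in the organoids by a cleavage assay, and tumors of this model negative for PIK3R1 staining. The 6 general epithelial markers summed to 2941 to 5498 CPM in the TPM and TPK libraries, to 73.3 and 23.7 CPM in TPMPik3ca and to 6.47 and 27.4 CPM in TPMPik3r1, with no marker at 0 in any library. The 6 fibroblast markers summed to 876 CPM in TPMPik3r1 replicate 1 and 2407 CPM or more elsewhere, and the 7 macrophage markers to 265 CPM there and 433 CPM or more elsewhere. The part of these cell types in the results below was not tested.

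One library stood apart for the whole gene group. The members summed to 18625 CPM in TPMPik3r1 replicate 1, against 3553 CPM in replicate 2 of the same model and 3943 to 6891 CPM in the other 6 libraries. Of the 31 members, 26 were at their highest of the 8 libraries in TPMPik3r1 replicate 1, where 21.4% of all tested genes had their highest level. The 5 exceptions were Insig1, Pmvk, Hsd17b7, Scd1 and Elovl6. No member was at its lowest there, as 21.3% of all genes were. In replicate 2 of TPMPik3r1, 7 members were at their lowest, where 9.91% of all genes were. None was at its highest in replicate 2, as 10.1% of all genes were.

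**Figure D1:**
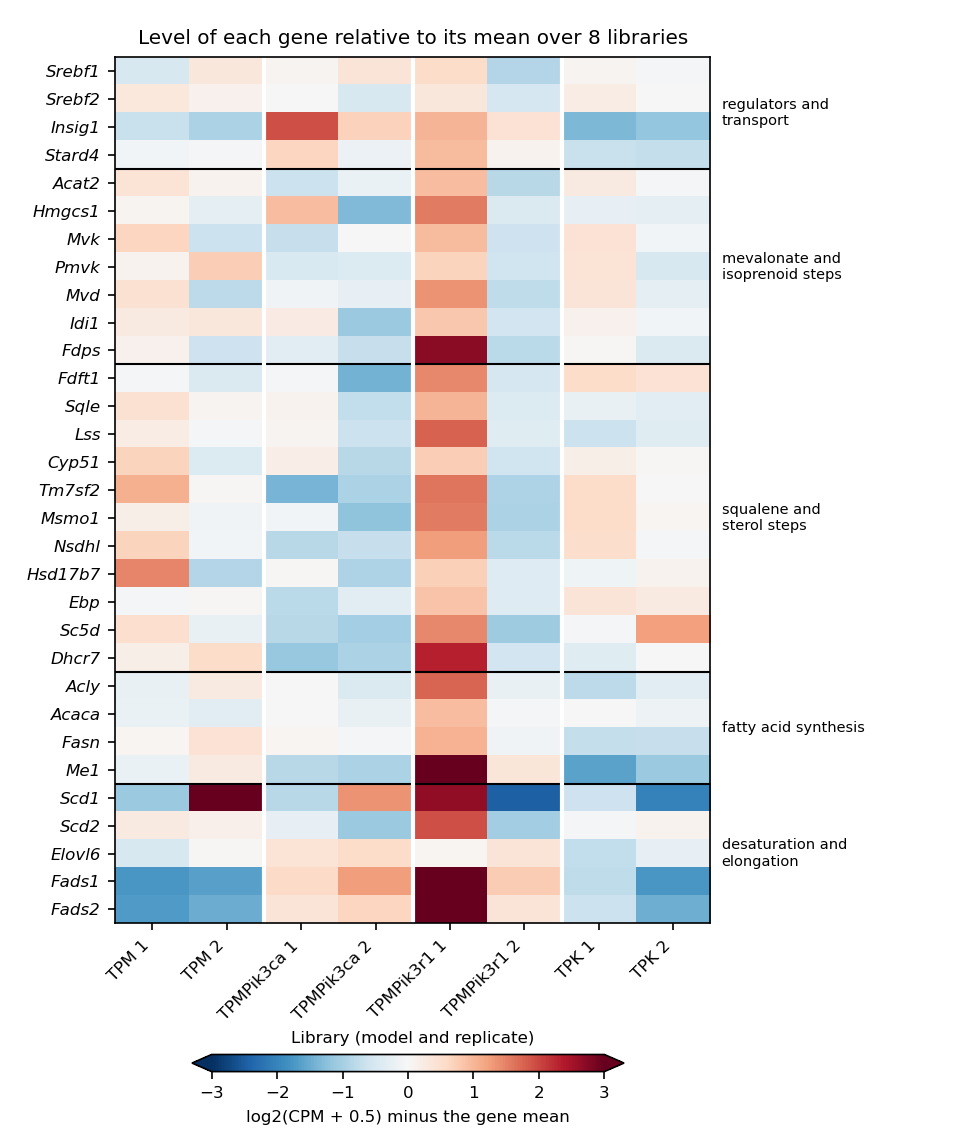
Each row is one of the 31 genes, grouped by role, and each column is a library. Color gives log2(CPM + 0.5) minus the mean of the gene over the 8 libraries, with the color scale ending at 3 in either direction. The column of TPMPik3r1 replicate 1 is red in nearly every row, and that of replicate 2 is mostly blue.

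The 2 libraries of a model were then set against each other. In TPMPik3r1, 26 of the 31 members were at least 2-fold higher in replicate 1 than in replicate 2, as were 13.9% of all tested genes, and 0 members were 2-fold lower, as were 18.1% of all genes. The median log2 ratio of the members was 1.93, against 0.00 for all genes. In the other models, 5 members in TPM, 6 in TPMPik3ca and 1 in TPK were 2-fold higher in replicate 1, with 7.24%, 7.77% and 8.44% of all genes, and 1 member in each was 2-fold lower, with 5.58%, 12.1% and 6.22%. By role, the median log2 ratio within TPMPik3r1 was 0.85 for the regulators, 1.76 for the mevalonate steps, 2.07 for the sterol steps, 1.56 for fatty acid synthesis and 2.97 for desaturation and elongation. All 18 enzymes of the mevalonate and sterol steps were over 2-fold apart. This split was noticed after the values had been seen, and the counts of members called below are also given without a TPMPik3r1 library.

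**Figure D2:**
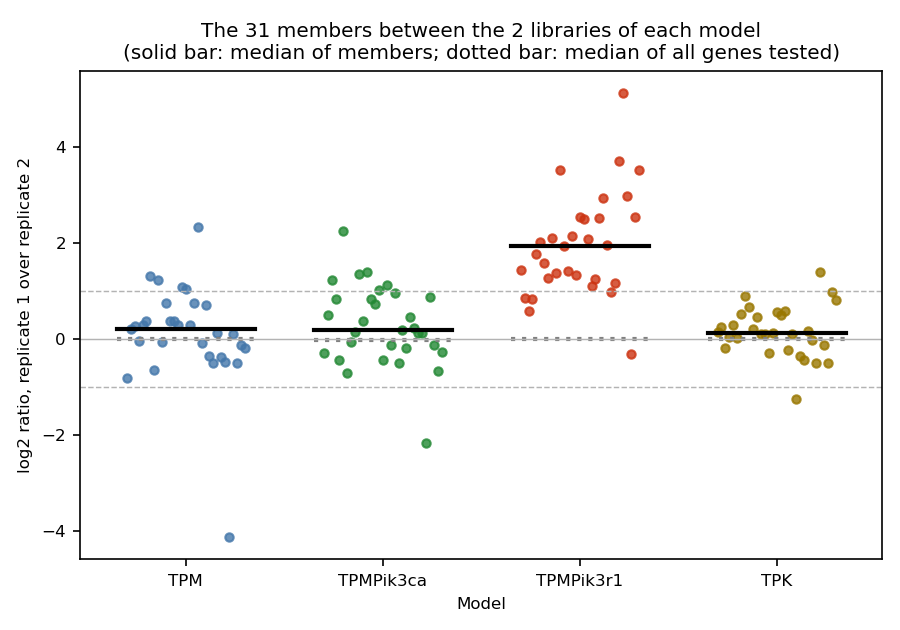
Each point is a member's log2 ratio of replicate 1 to replicate 2 in one model, with the median of the members as a solid bar and that of all tested genes as a dotted bar. Dashed lines mark 2-fold. In TPMPik3r1 the median is 1.93, with 30 of 31 members above 0, while the medians of the other models lie between 0.13 and 0.20.

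Letters that SREBP and its partners are known to read were looked up in the promoters of the members. RefSeq windows on GRCm38.p6, from 250 bases before to 50 bases after a start, were found for 24 of the 31 genes, in 30 windows. The sterol regulatory element, searched as TCACNCCAC on both strands, occurred in the window of Hmgcs1 alone, or 3.33% of the member windows against 1.24% of all 32851 windows. The CCAAT box, bound by the SREBP partner NF-Y, occurred in 70% of member windows and 37.4% of all windows. The GC box GGGCGG, bound by SP1, occurred in 73.3% of member windows, 35.7% of all windows and 58.4% of windows of tested genes. The letters CAAGGTCA, a site of the steroidogenic factor NR5A1, occurred in the window of Dhcr7 alone, 3.33% of member windows against 1.56% of all.

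The 250 bases before the start are shown for 5 members. They were chosen to set promoters with these letters beside promoters of strongly moving genes that hold few of them. Dhcr7 has 3 windows and Me1 has 2, and the one at the most upstream start is shown. The stretches lie at chr5:28071162-28071411 (plus strand), chr13:119690101-119690350 (plus), chr7:143822917-143823166 (plus), chr9:86695915-86696164 (minus) and chr19:10101504-10101753 (minus). Capitals mark the searched letters on either strand.
Insig1: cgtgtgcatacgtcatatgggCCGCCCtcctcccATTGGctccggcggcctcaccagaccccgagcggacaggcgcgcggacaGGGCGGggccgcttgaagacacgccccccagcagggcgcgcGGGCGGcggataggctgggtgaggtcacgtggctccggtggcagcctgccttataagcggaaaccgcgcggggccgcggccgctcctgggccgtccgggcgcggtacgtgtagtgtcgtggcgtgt
Hmgcs1: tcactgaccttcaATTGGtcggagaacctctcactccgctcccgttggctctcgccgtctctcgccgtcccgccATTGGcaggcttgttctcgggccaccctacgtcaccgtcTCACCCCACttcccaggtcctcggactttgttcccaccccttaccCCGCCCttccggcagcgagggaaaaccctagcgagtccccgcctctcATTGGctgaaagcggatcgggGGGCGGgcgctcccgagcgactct
Dhcr7: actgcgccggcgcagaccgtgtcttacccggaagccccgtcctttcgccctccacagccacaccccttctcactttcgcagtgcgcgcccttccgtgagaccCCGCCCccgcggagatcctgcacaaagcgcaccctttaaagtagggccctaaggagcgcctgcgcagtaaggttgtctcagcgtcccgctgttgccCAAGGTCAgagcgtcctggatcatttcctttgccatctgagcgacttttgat
Me1: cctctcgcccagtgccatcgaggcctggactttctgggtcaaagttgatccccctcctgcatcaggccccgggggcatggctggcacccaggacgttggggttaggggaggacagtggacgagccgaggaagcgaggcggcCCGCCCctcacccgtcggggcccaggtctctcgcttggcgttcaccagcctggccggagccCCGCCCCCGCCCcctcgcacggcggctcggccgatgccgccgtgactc
Fads2: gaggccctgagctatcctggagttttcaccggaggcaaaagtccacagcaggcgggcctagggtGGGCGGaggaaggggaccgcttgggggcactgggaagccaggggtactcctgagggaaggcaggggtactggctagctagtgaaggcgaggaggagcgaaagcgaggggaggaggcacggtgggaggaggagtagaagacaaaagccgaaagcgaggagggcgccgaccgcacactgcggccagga
Hmgcs1 held 1 sterol regulatory element, 3 CCAAT boxes and 2 GC boxes in this stretch, and Insig1 held 1 CCAAT box and 3 GC boxes. Dhcr7 held the NR5A1 letters, starting 52 bases before the start, and 1 GC box. Me1 and Fads2, which had much larger differences than Hmgcs1, held GC boxes only in the stretch shown, while another window of Dhcr7 and of Me1 held a CCAAT box. These matches describe letters and not binding, and an element with other letters or outside the windows would not be found.

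Whether TPMPik3r1 tumors differed from the other models was asked with TPMPik3r1 against the mean of TPM, TPMPik3ca and TPK. Me1, Fads1 and Fads2 rose, and no member fell. At an adjusted p under 0.05, edgeR called these 3 of 31 members, where 1.91% of all tested genes were called higher and 2.23% lower. The log2 fold change was above 0 in 29 of 31 members, against 52.1% of all genes, with a median of 0.74 against 0.04 over all genes. Only Me1 had both TPMPik3r1 libraries above the other 6, a pattern seen in 6.75% of all genes, and no member had both below them, as 7.43% of all genes had. By role, the median log2 fold change was 0.34 for the regulators, 0.37 for the mevalonate steps, 0.70 for the sterol steps, 1.02 for fatty acid synthesis and 1.23 for desaturation and elongation.

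These numbers rested on replicate 1. Without it, 0 members were called, where 1.07% of all genes were called higher and 1.2% lower, and the median log2 fold change of the members was -0.51. Without replicate 2, 12 members were called higher and 0 lower, where 7.04% and 7.99% of all genes were, and the median was 1.32. The 12 were Fdps, Lss, Tm7sf2, Msmo1, Dhcr7, Acly, Acaca, Fasn, Me1, Scd2, Fads1 and Fads2. In both cases the lone TPMPik3r1 library was taken to vary like the libraries of the other models.

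Of TPMPik3r1 against TPM, which asks what the added Pik3r1 sgRNA changed, Fads1 rose, 1 of 31 members where 1.08% of all genes were called higher and 4.5% lower. The log2 fold change was above 0 in 25 members and below it in 6, where it was above 0 in 51.6% of all genes, with a median of 0.50 against 0.03 for all genes. Both TPMPik3r1 libraries lay above both TPM libraries in 7 members, or 22.6% of them, against 24.5% of all genes, and no member lay wholly below, against 28.4%. The 7 were Insig1, Stard4, Acaca, Me1, Elovl6, Fads1 and Fads2. Without TPMPik3r1 replicate 1, Fads1 and Fads2 were called, where 1.34% of all genes were called higher and 3.23% lower, and the median was -0.73. Without replicate 2, 8 members were called higher and 0 lower, where 4.65% and 8.2% of all genes were, with a median of 1.02.

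**Figure D3:**
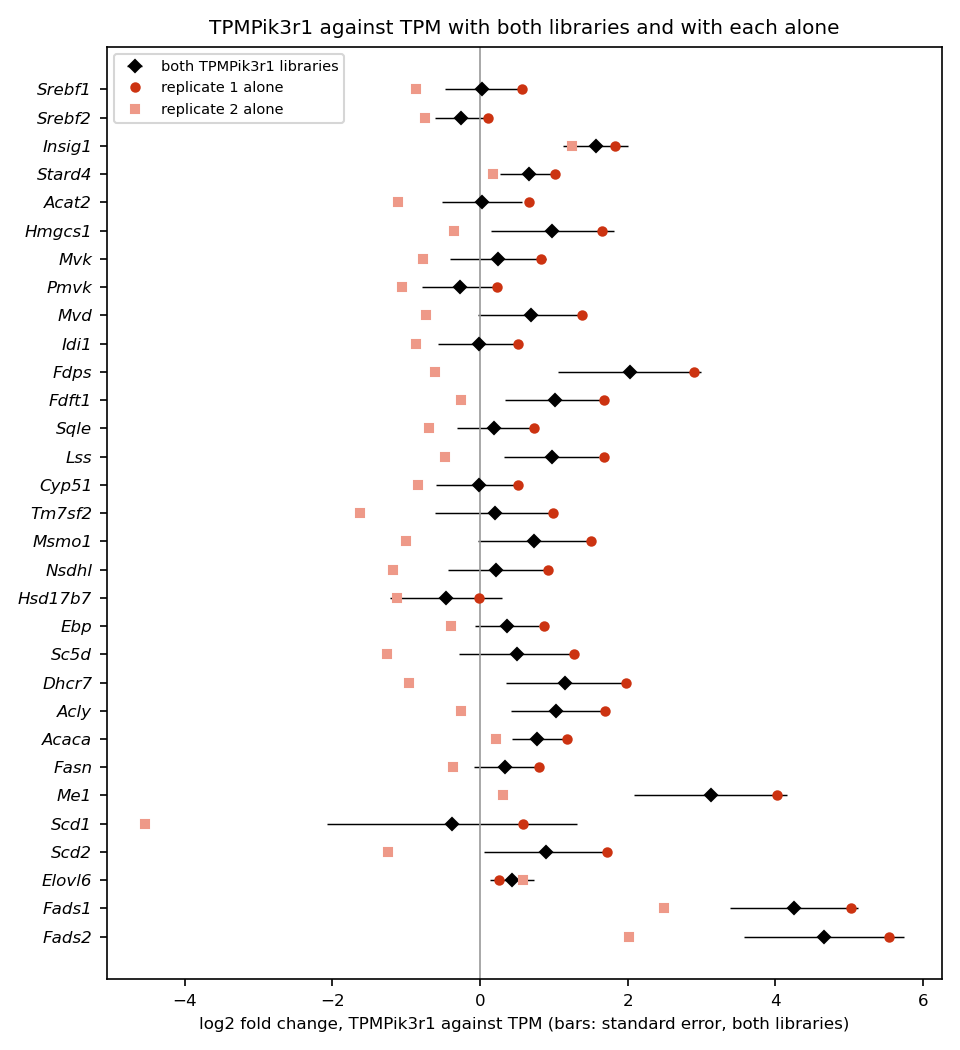
Log2 fold change of each member in TPMPik3r1 against TPM with both TPMPik3r1 libraries (diamonds, bars give the standard error), with replicate 1 alone (circles) and with replicate 2 alone (squares). With replicate 2 alone most members lie left of 0 and the median is -0.73, while 7 members lie right of 0. Insig1, Fads1 and Fads2 are among the members right of 0 in all 3 cases.

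Of TPMPik3ca against TPM, which asks what the added Pik3ca E545K cDNA changed, Insig1 rose and no member fell. This was 1 of 31 members, where 0.466% of all genes were called higher and 3.02% lower. The log2 fold change was above 0 in 8 members and below it in 23, where it was above 0 in 49.3% of all genes, with a median of -0.45 against -0.01 for all genes. It was below 0 in 11 of 11 sterol-step genes, from -1.87 for Tm7sf2 to -0.33 for Fdft1, and 0 of the 11 passed the test. Both TPMPik3ca libraries lay below both TPM libraries in 12 members, 38.7% of them against 32.2% of all genes, and above in 4 members, 12.9% of them against 29.1%. Without TPMPik3r1 replicate 1, which only enters through the estimate of the spread, Insig1, Fads1 and Fads2 were called higher and Dhcr7 lower, where 3.25% and 7.1% of all genes were. The TPM libraries are shared by this comparison and the one before it.

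Between TPMPik3r1 and TPMPik3ca, edgeR called 0 members and 0 of 15875 genes in all. At an unadjusted p under 0.05, 4 members were higher and 0 lower, where 5.49% and 6.27% of all genes were, and DESeq2 called 2 members, Dhcr7 and Me1, where it called 2.09% of all genes higher and 2.94% lower. Both TPMPik3r1 libraries lay above both TPMPik3ca libraries in 3 members and below in 1, against 18.8% and 17.7% of all genes. The log2 fold change was above 0 in 28 of 31 members, against 51% of all genes, with a median of 0.82. Without TPMPik3r1 replicate 1 the median was -0.16 and 0 members were called, and without replicate 2 it was 1.42 and 12 members were called higher and 0 lower, where 4.03% and 4.54% of all genes were.

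For TPK against the mean of TPMPik3ca and TPMPik3r1, the contrast in which the study set TPK apart, Insig1 and Fads1 fell. These were 2 of 31 members, where 10.3% of all genes were called higher and 4.06% lower. The log2 fold change was above 0 in 13 members and below it in 18, where it was above 0 in 49.9% of all genes, with a median of -0.20. Both TPK libraries lay below all 4 others in 7 members and above them in 0, against 18.5% and 22.4% of all genes. Without TPMPik3r1 replicate 1, Insig1, Me1, Fads1 and Fads2 were called lower and Sc5d higher, where 7.11% and 12.4% of all genes were, and the median was 0.45. Without replicate 2, 9 members were called lower and 0 higher, where 6.19% and 12.8% of all genes were, and the median was -0.49. DESeq2 on all 8 libraries called 7 members lower and 0 higher, where it called 12% and 14.6% of all genes, and the 7 were Insig1, Stard4, Fasn, Me1, Elovl6, Fads1 and Fads2.

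Among the regulators, Srebf1 and Srebf2 themselves were 2.68-fold and 1.81-fold higher in TPMPik3r1 replicate 1 than in replicate 2. Srebf1 ranged from 102 CPM in TPMPik3r1 replicate 2 to 276 CPM in replicate 1, and Srebf2 from 205 to 371 CPM in the same libraries. Averaged over these 2 libraries, their log2 fold changes in TPMPik3r1 against the other models were -0.08 ± 0.41 and -0.06 ± 0.29 (SE). In none of the 5 comparisons did edgeR call either gene. These are transcript levels and do not show how much SREBP was cut and active.

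Insig1, which encodes the brake on SREBP and is itself an SREBP target, split the models in another way. It was at 308 and 131 CPM in TPMPik3ca, 164 and 109 CPM in TPMPik3r1, 50.5 and 41.6 CPM in TPM, and 31.4 and 35.9 CPM in TPK. All 4 libraries of the models with an added PI3K edit lay above all 4 others, and TPM lay above TPK. How many of all genes share the first pattern was not counted, here or for Fads1, Fads2 and Elovl6 below. Against TPM alone, both libraries lay above in 29.1% of all genes for TPMPik3ca and in 24.5% for TPMPik3r1. Insig1 rose by 2.25 ± 0.45 on the log2 scale in TPMPik3ca against TPM (adjusted p = 0.04996 from edgeR, just inside the threshold). In TPK it fell by 2.37 ± 0.42 against the mean of the PI3K models (adjusted p = 0.0155 from edgeR). In TPMPik3r1 against TPM the log2 difference was 1.57 ± 0.44 (adjusted p = 0.0948 from edgeR), which did not pass. The 6 epithelial markers summed to 73.3 CPM or less in the same 4 libraries in which Insig1 was high, and their part in this was not tested.

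Stard4, which carries cholesterol between membranes, was at 66.4 and 36.9 CPM in TPMPik3ca, 81.5 and 45.3 CPM in TPMPik3r1, 39.6 and 40.6 CPM in TPM, and 26.2 and 25.6 CPM in TPK. TPK was lowest of the models with no overlap, and both TPMPik3r1 libraries exceeded both TPM libraries. The log2 difference of TPK from the PI3K models was -1.14 ± 0.36 (adjusted p = 0.0795 from edgeR).

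In the mevalonate steps, Fdps, which makes farnesyl diphosphate, the branch point to sterols and prenylated proteins, showed the widest gap of the 7 genes. It was at 1168 CPM in TPMPik3r1 replicate 1 and 102 CPM in replicate 2, 195 and 116 CPM in TPM, 142 and 111 CPM in TPMPik3ca, and 183 and 133 CPM in TPK. The 2 TPMPik3r1 libraries were the highest and the lowest of all 8, 11.4-fold apart. The log2 difference from the other models, 2.12 ± 0.70, did not pass (adjusted p = 0.13 from edgeR), and without replicate 2 the gene was called higher (adjusted p = 0.00411 from edgeR).

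Hmgcs1, the enzyme that joins acetoacetyl-CoA and acetyl-CoA at the start of the pathway, was at 623 and 155 CPM in TPMPik3r1, 399 and 83.4 CPM in TPMPik3ca, 222 and 172 CPM in TPM, and 179 and 176 CPM in TPK. In both PI3K models replicate 1 was above, and replicate 2 below, every TPM and TPK library. No comparison of Hmgcs1 passed the test in edgeR, and it stayed uncalled without either TPMPik3r1 library. Acat2, Mvk, Pmvk, Mvd and Idi1, the other enzymes of these steps, had log2 fold changes of 0.16 to 0.68 in TPMPik3r1 against the other models, and edgeR called none of them in the 5 comparisons.

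In the squalene and sterol steps, Dhcr7, which catalyzes the last step to cholesterol in one branch of the pathway, was at 372 CPM in TPMPik3r1 replicate 1 and 48.5 CPM in replicate 2. It was at 82.8 and 107 CPM in TPM, 56.2 and 72.1 CPM in TPK, and 32.8 and 37.5 CPM in TPMPik3ca. TPMPik3ca was lowest of all models with no overlap, and the TPMPik3r1 libraries lay above and below the TPM pair. In TPMPik3ca against TPM the log2 difference was -1.43 ± 0.80 (adjusted p = 0.337 from edgeR), and the gene was called lower there without either TPMPik3r1 library (adjusted p = 0.0242 and 0.0245 from edgeR), where the estimate of the spread was smaller.

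Lss, which folds squalene epoxide into lanosterol, the first sterol, was at 220.2 CPM in TPMPik3r1 replicate 1, 49.6 CPM in replicate 2 and 40.9 to 75.7 CPM in the other 6 libraries. Replicate 1 alone stood out, and replicate 2 lay inside the range of the other models. The remaining 9 genes, Fdft1, Sqle, Cyp51, Tm7sf2, Msmo1, Nsdhl, Hsd17b7, Ebp and Sc5d, had log2 fold changes of 0.15 to 0.94 in TPMPik3r1 against the other models, and edgeR called none of them in the 5 comparisons on all libraries. Hsd17b7 was highest in TPM replicate 1 at 116 CPM, and Sc5d reached 154 CPM in TPK replicate 2 beside 179 CPM in TPMPik3r1 replicate 1.

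In fatty acid synthesis, Me1, the cytosolic malic enzyme that supplies NADPH, was at 2889 CPM in TPMPik3r1 replicate 1 and 222 CPM in replicate 2. It was at 149 and 208 CPM in TPM, 96.0 and 88.2 CPM in TPMPik3ca, and 56.5 and 79.8 CPM in TPK. The 4 models did not overlap in this gene, in the order TPMPik3r1, TPM, TPMPik3ca and TPK, although the lower TPMPik3r1 library was only just above the higher TPM library. Me1 rose by 3.90 ± 0.71 on the log2 scale in TPMPik3r1 against the other models (adjusted p = 0.0386 from edgeR). Without replicate 1 the log2 difference was 1.10 (adjusted p = 0.114 from edgeR), and without replicate 2 it was 4.80 (adjusted p = 0.0014 from edgeR).

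Acly, which releases acetyl-CoA from citrate for both pathways, was at 1283 CPM in TPMPik3r1 replicate 1, 331 CPM in replicate 2, 328 and 464 CPM in TPM, 385 and 283 CPM in TPMPik3ca, and 222 and 301 CPM in TPK. Only replicate 1 lay outside the range of the others. Acaca, which commits acetyl-CoA to fatty acids, was at 218 and 111 CPM in TPMPik3r1 and 92.2 to 117 CPM elsewhere. Fasn, the fatty acid synthase, was at 1112 and 495 CPM in TPMPik3r1, 327 and 332 CPM in TPK and 512 to 721 CPM in the other 4 libraries, so that TPK was lowest of the models. With all libraries, edgeR called neither Acly, Acaca nor Fasn in any of the 5 comparisons, whereas DESeq2 called Fasn lower in TPK.

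Of the desaturases, Fads1 and Fads2, the front-end desaturases that make polyunsaturated fatty acids, were low in TPM and TPK and higher in both PI3K models. Fads1 was at 104 and 165 CPM in TPMPik3ca, 689 and 119 CPM in TPMPik3r1, 20.2 and 22.2 CPM in TPM, and 40.3 and 20.2 CPM in TPK. Every library of the PI3K models exceeded every TPM and TPK library, and replicate 2 of TPMPik3r1 lay between the TPMPik3ca libraries. These are again the 4 libraries with low epithelial markers. Fads1 rose by 4.25 ± 0.87 on the log2 scale in TPMPik3r1 against TPM (adjusted p = 0.0418 from edgeR) and by 3.19 ± 0.56 against the mean of the other models (adjusted p = 0.0354 from edgeR). In TPK it fell by 2.94 ± 0.77 against the PI3K models (adjusted p = 0.0492 from edgeR). With TPMPik3r1 replicate 2 alone, the difference from TPM was 2.49 (adjusted p = 0.043 from edgeR).

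Fads2 lies 81.1 kb from Fads1 on chromosome 19 of GRCm38 (10062765 to 10101746, minus strand, against 10182888 to 10196877, plus strand, in GENCODE M21). It was at 50.2 and 60.9 CPM in TPMPik3ca, 581 and 50.4 CPM in TPMPik3r1, 11.6 and 13.3 CPM in TPM, and 24.3 and 13.7 CPM in TPK. The order of the models was that of Fads1, again with no overlap between the PI3K models and the others. Fads2 rose by 3.74 ± 0.69 on the log2 scale in TPMPik3r1 against the other models (adjusted p = 0.0394 from edgeR). Against TPM its log2 difference was 4.67 ± 1.08 with both libraries (adjusted p = 0.059 from edgeR), and 2.02 with replicate 2 alone (adjusted p = 0.049 from edgeR). In TPMPik3ca against TPM, Fads1 and Fads2 differed by 2.66 ± 0.81 and 2.16 ± 0.97 (adjusted p = 0.125 and 0.252 from edgeR), and both were called without either TPMPik3r1 library.

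**Figure D4:**
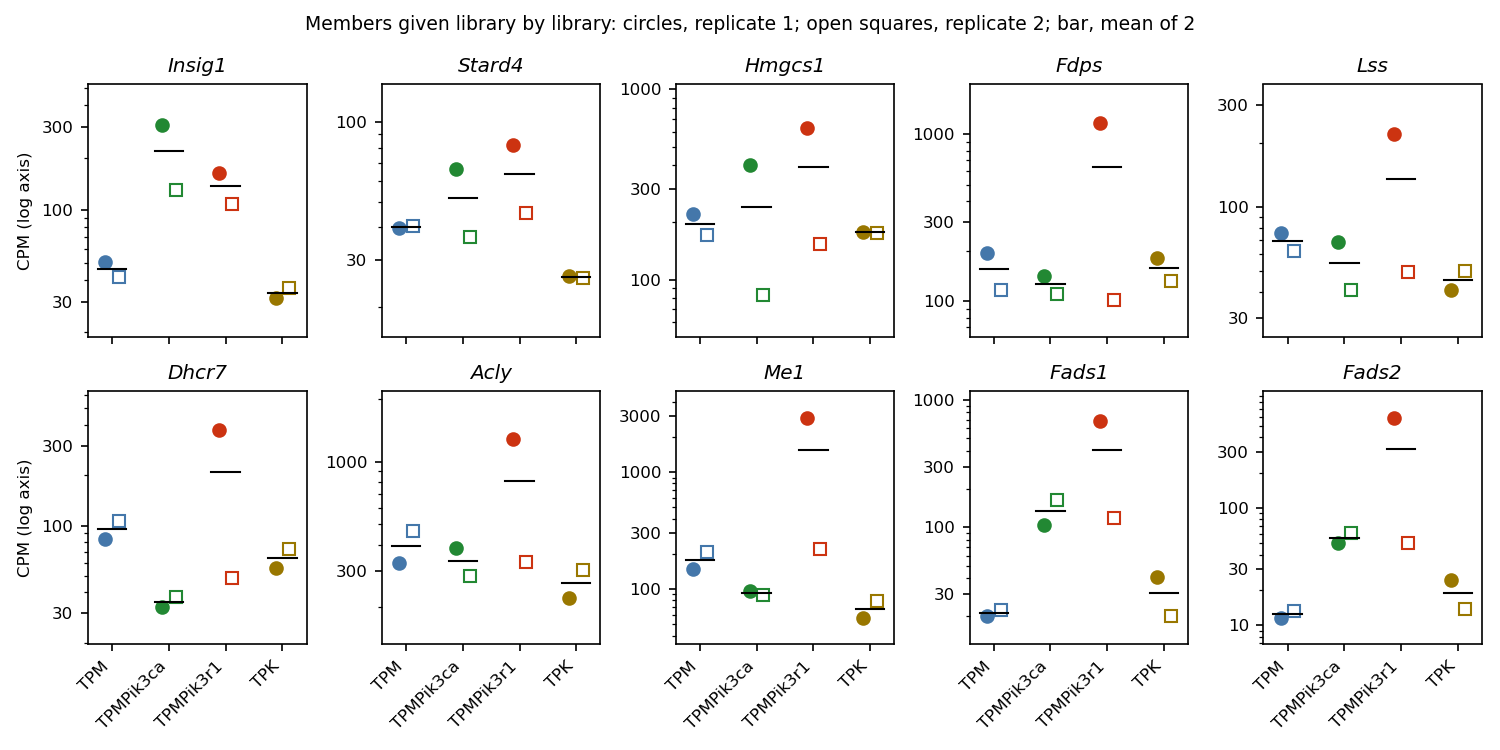
CPM on a log axis in each library for the 10 members described library by library. Circles are replicate 1, open squares replicate 2, and bars the mean of 2. TPMPik3r1 replicate 1 reaches 2889 CPM for Me1 and 1168 CPM for Fdps, while for Insig1, Fads1 and Fads2 both libraries of both PI3K models lie above TPM and TPK. How many of all genes share that pattern was not counted.

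Elovl6, which lengthens saturated fatty acids, was at 82.1 and 90.3 CPM in TPMPik3ca, 64.5 and 80.4 CPM in TPMPik3r1, 44.2 and 63.2 CPM in TPM, and 36.5 and 51.6 CPM in TPK. It was the one member lower in TPMPik3r1 replicate 1 than in replicate 2, and edgeR called it in no comparison, whereas DESeq2 called it lower in TPK. Both PI3K models lay above TPM and TPK here too, at the closest by 64.5 against 63.2 CPM.

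The stearoyl-CoA desaturases Scd1 and Scd2, which put the first double bond into saturated fatty acids, are close paralogs 87.6 kb apart on chromosome 19, so reads could be split between them and their values are less certain. Scd2 was at 4851 and 618 CPM in TPMPik3r1 and 584 to 1524 CPM in the other libraries, and per kb of exon it had the highest mean level of the 31 members, 290 CPM per kb, against 123 CPM per kb for Me1 and 3.9 CPM per kb for Tm7sf2. Scd1 was at 1436 and 41.1 CPM in TPMPik3r1, 104 and 1817 CPM in TPM, 127 and 574 CPM in TPMPik3ca, and 147 and 55.3 CPM in TPK. In TPM, TPMPik3ca and TPMPik3r1 the 2 libraries of a model lay over 4-fold apart, and edgeR called the gene in no comparison. In TPM replicate 2, where Scd1 was highest, the wax synthesis genes Awat1, Awat2 and Far2 of sebaceous and meibomian glands were at 23.1, 26.8 and 56.97 CPM, against 6.14 CPM or less in every other library. The 6 markers of that list summed to 707 CPM there and 165 to 659 CPM elsewhere, and the part of such cells in Scd1 was not tested.

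Genes of steroid hormone synthesis were set beside the members, since cholesterol is their substrate. Of 15 such genes, 10 were tested, and 7 were called higher in TPMPik3r1 than in the other models and 0 lower: Star, Cyp11a1, Hsd3b1, Cyp17a1, Hsd17b1, Nr5a1 and Fdx1. Over all tested genes, 1.91% were called higher and 2.23% lower. The list was chosen with earlier results of these data known, so its count is a description only. Nr5a1 had few counts in most other libraries, so it could enter the test through the TPMPik3r1 libraries. The median log2 fold change was 3.29 over the 10 tested without replicate 1, and 6.07 over the 13 tested without replicate 2. The 13 include genes that could enter the test through replicate 1 alone. Hsd17b3 had 128 counts there and 0 in every other library, and Hsd3b6 had 1362 counts there and 2 or fewer elsewhere. Nr5a1, the master regulator of steroid-making cells, was at 753 and 148 CPM in TPMPik3r1 and 5.23 CPM or less elsewhere. Cyp11a1, which cuts the side chain of cholesterol, was at 3768 and 182 CPM in TPMPik3r1 and 8.46 CPM or less elsewhere. Star, which brings cholesterol into mitochondria, was at 468 and 18.5 CPM in TPMPik3r1 and 12.6 CPM or less elsewhere. Both TPMPik3r1 libraries thus lay above all others in these 3 genes, with replicate 1 far above replicate 2. Hsd3b1, at 35 and 91.1 CPM, and Hsd17b1, at 1.08 and 18.2 CPM, were higher in replicate 2.

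The 2 libraries also differed in which steroid genes they held. Cyp21a1, the adrenal 21-hydroxylase, was at 2274 CPM in replicate 1 and at 0 in replicate 2, with 5.89 CPM or less elsewhere. Of the 6 adrenal cortex markers, 5 were above 0 in replicate 1 and 2 in replicate 2, and they summed to 2595 CPM against 5.28 CPM, with 1.25 to 9.35 CPM in the other libraries. Their defining late enzymes Cyp11b1 and Cyp11b2 were at 0.77 and 0 CPM in replicate 1. Replicate 2 instead had the higher levels of the ovarian genes Foxl2 (33.1 against 0.31 CPM) and Lhcgr (7.23 against 0.19 CPM), while the aromatase Cyp19a1 and the receptor Fshr of granulosa cells were at 0 in both. The 8 ovarian markers summed to 195 CPM in replicate 2, 50.03 CPM in replicate 1 and 58.7 to 134 CPM elsewhere. The 4 Leydig and theca markers summed to 146 and 7.95 CPM, with 9.15 CPM or less elsewhere. Whether the members rose in the same cells as these genes was not tested.

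**Figure D5:**
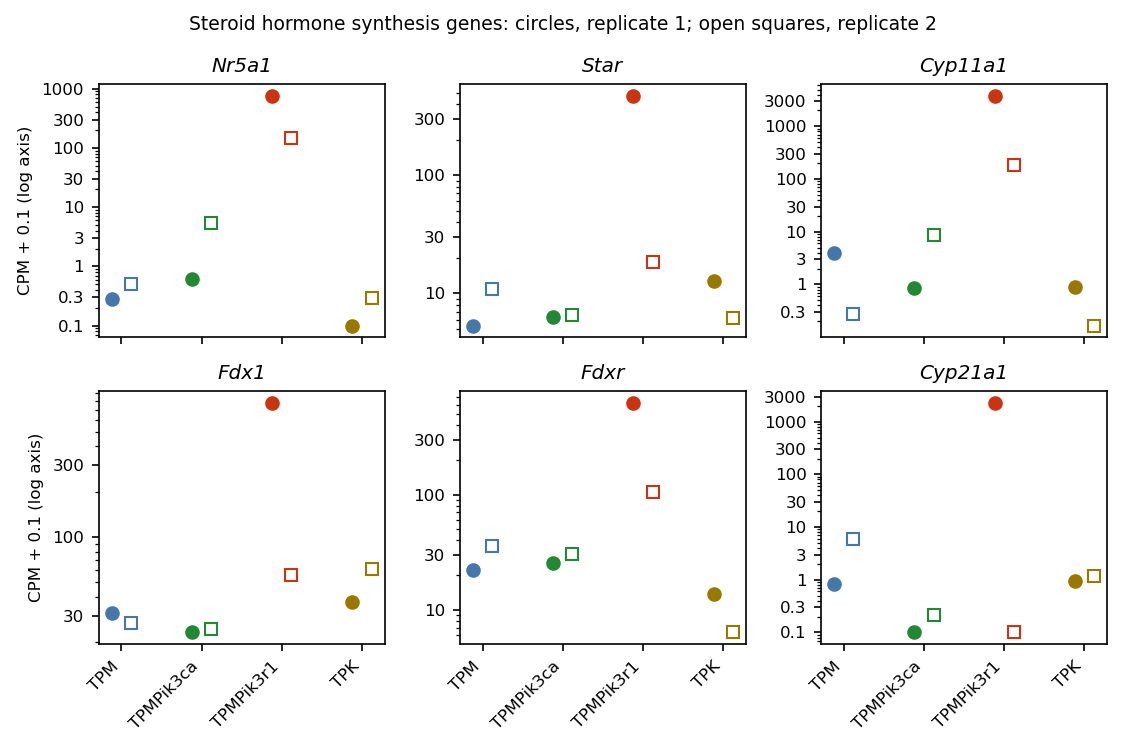
CPM + 0.1 on a log axis for 6 genes, with circles for replicate 1 and open squares for replicate 2. Nr5a1, Star, Cyp11a1, Fdx1 and Cyp21a1 are of the steroid hormone list, and Fdxr is of the further sterol genes below. Nr5a1, Star and Cyp11a1 are highest in both TPMPik3r1 libraries, with 3768 and 182 CPM for Cyp11a1, while Cyp21a1 is at 2274 CPM in replicate 1 and 0 in replicate 2.

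Other genes of the pathway were read from fixed lists. In TPMPik3r1 against the other models, 1.91% of all tested genes were called higher and 2.23% lower, with a median of 0.04. The shares without each TPMPik3r1 library are those given above for this comparison. Of 15 further sterol genes, 1 was called higher in TPMPik3r1 than in the other models and 0 lower, with a median log2 fold change of 0.22. This was Fdxr, which hands electrons to mitochondrial P450 enzymes and was at 626 and 105 CPM in TPMPik3r1 and 35.6 CPM or less elsewhere. Without replicate 1 it was again the 1 gene called, and without replicate 2, 4 were called higher. Of 22 further lipogenesis genes, 3 were called higher and 0 lower, with a median of 0.76: Thrsp, a nuclear factor of lipogenesis, Gpam, which starts glycerolipid synthesis, and Elovl5, which lengthens the products of the Fads enzymes. Thrsp was at 668 and 57.1 CPM in TPMPik3r1 and 21.1 CPM or less elsewhere. Gpam was at 529 and 122 CPM against 45.8 CPM or less, and it alone of the 22 was called without replicate 1, while 9 were called higher without replicate 2. Elovl5 was at 439 and 113 CPM against 87.02 CPM or less.

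Of 20 genes of the LXR response and sterol handling, 0 were called higher and 1 lower, where 1.91% and 2.23% of all genes were. Their median was -0.08, with the log2 fold change above 0 in 9 genes and below it in 11. Abca1 and Lpcat3 of this list were at 1706 and 340 CPM in TPMPik3r1 replicate 1, against 228 and 67.4 CPM or less in every other library. The gene called lower was Mylip, which marks lipoprotein receptors for breakdown. It was at 11.6 and 12.3 CPM in TPMPik3r1 and 28.3 to 130 CPM elsewhere, so both libraries were below all others, and it was not called without replicate 1. Without that library 0 of the 20 were called higher and 1 lower, Cyp27a1, a sterol hydroxylase, with a median of -0.68, and without replicate 2, 4 were called higher and 2 lower, with a median of -0.26. In TPMPik3ca against TPM, 1 of these 57 other pathway genes was called, where 0.466% of all genes were called higher and 3.02% lower. By this count the 57 genes did not stand out from all genes. The called gene was Insig2, a second SREBP brake, which fell by 1.96 ± 0.37 on the log2 scale (adjusted p = 0.0439 from edgeR), opposite in sign to Insig1. It was at 17.2 and 22.04 CPM in TPMPik3ca against 53.2 and 98.96 CPM in TPM.

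Fat cells were checked because they make fatty acids. The 10 adipocyte markers summed to 212 and 821 CPM in TPMPik3ca, 305 and 160 CPM in TPMPik3r1, 41.8 and 53.4 CPM in TPM, and 321 and 15.2 CPM in TPK. The defining gene Adipoq was at 0.50 CPM in TPMPik3r1 replicate 1, where the members were highest, and at 32.1 CPM in TPMPik3ca replicate 2. The lipid droplet genes Plin1 and Plin4 of the same list were instead at their highest of the 8 libraries in TPMPik3r1 replicate 1, at 58.7 and 178 CPM, and the part of fat cells in the results was not tested. The 4 hepatocyte markers summed to 4.11 CPM or less in every library and to 0.23 CPM in TPMPik3r1 replicate 1.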

How the data were processed

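RNA of 8 libraries, 2 for each of 4 models, was measured by polyA RNA sequencing with paired reads. The authors had the reads trimmed, aligned them to mm10 with STAR and deposited whole-number counts per gene symbol, and the counter, its annotation and any use of strand are not given in the sources used here. The authors also deposited a table of normalized signal values from DESeq2, which was not used. Groups and replicate numbers were taken from the sample labels, and the TPM libraries were matched to columns headed with a slightly longer name.

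The counts were filtered with filterByExpr, scaled by TMM and fitted with one quasi-likelihood model over all 8 libraries in edgeR 4.0.16 (R 4.3.3, limma 3.58.1), with Benjamini-Hochberg adjustment over all tested genes and a threshold of 0.05. CPM was computed with the TMM factors, a standard error is the log2 fold change divided by the square root of F, and p-values measure the spread between these libraries. With 2 libraries against 2, no permutation of one gene's values can pass 0.05. DESeq2 1.42.0, other scalings, filters and fits, and leaving out each library were alternatives. The edgeR fit was tested on simulated counts for TPMPik3r1 against TPM. It recovered 35.1% of 4-fold changes and 78% of 16-fold changes, and called 2 unchanged genes. The simulated spread was the same in every model, whereas in the data 2-fold gaps between replicates were most common in TPMPik3r1. These rates are therefore only a rough guide. A gene that was not called may therefore still differ. Tables and plots were made with Python 3.11.15, pandas 2.3.3 and matplotlib 3.10.9. Gene positions are from GENCODE M21, and promoters from RefSeq.

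The members and lists were chosen with earlier results of these data known. Named members were those called in any comparison and the 2 of each role with the smallest unadjusted p in TPMPik3r1 against the other models. Members beyond these were given by ranges, and values outside the rule were chosen after they were seen. Results on some engineered genes are not reported here.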

Additional observations from a re-analysis of the deposited data

Results flagged for a closer look

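Me1 was the one member whose libraries moved in opposite directions in the PI3K models: both TPMPik3r1 libraries lay above, and both TPMPik3ca libraries below, both TPM libraries. The difference between these models was 4.08 on the log2 scale (adjusted p = 0.372 from edgeR), with 222 CPM in the lower TPMPik3r1 library against 208 CPM in the higher TPM library. The 2 comparisons share the TPM libraries.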

How the results depend on the processing

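The number of members called depended on the setting, for 3 members in TPMPik3r1 against the other models, 1 in TPMPik3r1 against TPM, 1 in TPMPik3ca against TPM, 0 in TPMPik3r1 against TPMPik3ca and 2 in TPK against the PI3K models. In that order, DESeq2 called 5, 4, 2, 2 and 7. Of all genes it called 7.9%, 6.37%, 6.12%, 2.09% and 14.6% higher, and 11.1%, 10.7%, 9.95%, 2.94% and 12% lower. The study's rule was an unadjusted p under 0.05 from DESeq2 with a log2 fold change beyond 1. It gave 7, 5, 4, 6 and 6 members, which is a description only, since its share of all genes is not given here. With at least 10 counts in every library the count was 0 for TPMPik3r1 against TPM, 0 for TPMPik3ca against TPM and 1 for TPK. A fit of only the compared models gave 0, 3 and 1 for these, and no filter on low counts gave 2 for TPMPik3r1 against TPM. Leaving out each library in turn gave 0 to 12 members for TPMPik3r1 against the other models, 0 to 8 against TPM, 0 to 12 against TPMPik3ca, 0 to 4 for TPMPik3ca against TPM and 0 to 9 for TPK. The median log2 fold changes then ranged from -0.51 to 1.32, -0.73 to 1.02, -0.16 to 1.42, -0.71 to -0.13 and -0.49 to 0.45, in the order of that sentence. The cause of these changes was not tested.

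Of 109 values of single called members under alternatives, 56 kept their direction and passed the test, 53 kept their direction and did not pass, and 0 changed direction. The count of all genes called moved too: from 657 to 3041 (DESeq2), 280 (at least 10 counts), 1042 (no filter) and 43 to 2443 (a library left out) in TPMPik3r1 against the other models, from 886 to 2864, 348, 53 (compared models only) and 164 to 2059 in TPMPik3r1 against TPM, from 553 to 2575, 145, 1264 and 38 to 1643 in TPMPik3ca against TPM, from 0 to 806 and up to 1379 in TPMPik3r1 against TPMPik3ca, and from 2287 to 4470, 1453, 1451 and 541 to 3108 in TPK.

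The replicate numbers did not pair the libraries: the difference between replicates correlated at -0.08 to 0.01 between models over 15875 genes. With the replicate number as a block, the members called were 0 in TPMPik3r1 against the other models, 0 against TPM, 0 in TPMPik3ca against TPM and 1 in TPK, with 243, 557, 362 and 1661 of all genes called.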
